A study of Mus musculus with 6 samples.

Results

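Ribosomal protein genes of the cytosolic ribosome were followed in lung RNA from mice with and without a heterozygous loss of Sgo1. Members were picked by a rule on gene names, which was set with earlier results of these data known. Rpsa and every mouse symbol made of Rpl, Rplp or Rps, a number and at most 1 of the letters a, x or l were taken, and the Rps6k kinases and symbols with a pseudogene suffix were left out. This gave 83 of the 25860 genes in the table, 51 of the large subunit (with the stalk genes Rplp0, Rplp1 and Rplp2) and 32 of the small subunit. RNA-seq was performed on normal-looking lung tissue of 12-month-old mice. The control group held 3 RAG1-/- mice (replicates 1, 2 and 3) and the other group 3 RAG1-/- Sgo1-/+ mice (replicates 4, 5 and 6), with 1 library per mouse. The mice were bred on a C57BL/6 background, and both groups lacked RAG1, which is needed to make mature T and B cells. The Sgo1-/+ mice carried 1 inactive copy of Sgo1, the gene of a protein that protects centromeric cohesion, in every cell of the body.

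Cytosolic ribosomes consist of rRNA and a fixed set of proteins in a large and a small subunit, most of them present once per ribosome. Every cell needs them, and their mRNAs are among the most abundant in a cell. Many of these mRNAs begin with a run of pyrimidines, the 5′ terminal oligopyrimidine (TOP) motif, through which mTORC1 signalling controls their translation. The genes have many processed pseudogenes, which are near-identical copies without introns, so a short read can fit more than 1 place in the genome. Free Rpl5 and Rpl11 proteins bind Mdm2, the inhibitor of p53, when ribosome assembly is disturbed.

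The libraries held 3205822 to 9366774 counts on genes, and CPM below are counts scaled to a common library total, on which 3 counts were 0.320 to 0.936 CPM. The targeted genes gave no check of the labels. In replicates 1 to 6, Sgo1 had 6, 2, 4, 6, 0 and 2 counts, and Rag1 had 24, 10, 16, 12, 8 and 8 counts. The lung epithelium markers took 8.21 to 10.4% of the counts in every library. Replicate 1 had 824 CPM of Xist and 0.214 CPM of Ddx3y, and the other 5 libraries had 107 to 186 CPM of Ddx3y, so replicate 1 was the only library with the female pattern. The 15 B and plasma cell markers took 0.0376% of the counts in replicate 2 and 0.00549 to 0.00923% in the others, and Igkc had 374 CPM there and at most 0.854 CPM elsewhere, against the RAG1-/- label. Igkc, which codes for an immunoglobulin light chain, was named after its value was seen. The 10 adipocyte markers took 0.146% in replicate 1 and 0.0113 to 0.0222% in the others. The 12 macrophage markers took 1.57% in replicate 6 and 0.786 to 1.11% in the others. The neutrophil markers took 0.0123 to 0.0278% in RAG1-/- and 0.00887 to 0.0203% in RAG1-/- Sgo1-/+, with 3 of 8 tested markers at an unadjusted P under 0.05 in edgeR's test, all lower. In that test 5 of 12 macrophage markers (4 higher, 1 lower), 6 of 10 adipocyte markers and 5 of 14 B and plasma cell markers (all lower) had an unadjusted P under 0.05. Of 12 lung epithelium, 11 T cell, 10 cardiac muscle and 13 proliferation markers tested, 0 had one in edgeR's test. The part of these differences in the values below was not tested, and the main counts are also given without single libraries.

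The ribosomal protein genes differed widely in level. Rpl41, a very short protein of the large subunit, was the highest member, with 719, 670 and 817 CPM in RAG1-/- against 616, 675 and 738 CPM in RAG1-/- Sgo1-/+. It was followed by Rplp1, a stalk protein that helps to recruit the elongation factors, with 484, 564 and 556 CPM against 438, 483 and 706 CPM. Rpl8, a core large subunit protein, had 555, 536 and 534 CPM against 477, 558 and 567 CPM. In all 3 genes the groups overlapped. The 10 highest members, with Rplp0, Rps9, Rpl4, Rpl6l, Rps3 and Rps15 among them, held 54.0% of all counts on members. At the other end, Rpl39 and Rpl10l, a testis paralog of Rpl10, had 0 counts in all 6 libraries, and Rpl39l, the paralog of Rpl39, had 2 counts, both in replicate 6. The remaining 80 members had at least 10 counts and were tested.

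**Figure D1:**
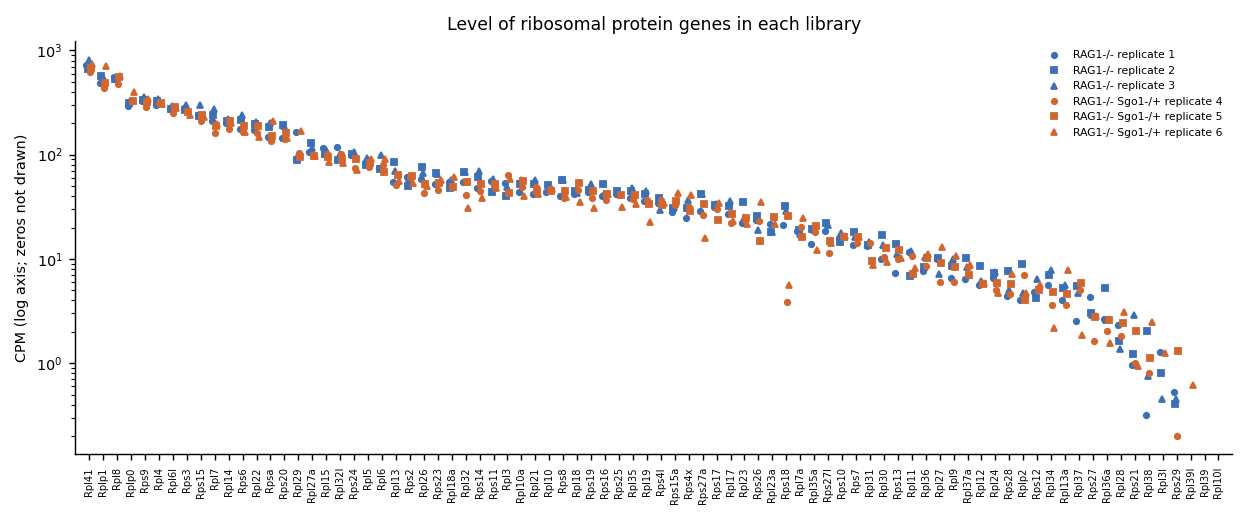
Level of the members in each library, as CPM on a log axis, with genes ordered by their mean over the 6 libraries. Blue points are RAG1-/- and orange points RAG1-/- Sgo1-/+ libraries, 1 point per library, and zeros are not drawn. Rpl41, Rplp1 and Rpl8 lead, Rps18 is the gene with 2 libraries far under the other 4, and Rpl39 and Rpl10l have no points.

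Levels of different genes can be set side by side only per length. Per kilobase of the mature transcript, the mean over the 6 libraries ran from 0 for Rpl39 and Rpl10l to 1298 CPM per kb for Rpl41, with a median of 39.9 over the 80 members that have a protein-coding transcript model in GENCODE M21. Rplp1 had 1079 and Rpl8 632 CPM per kb. Rpl5 had 41.2, Rpl11 11.3, Rpl34 10.8, Rps27 8.395 and Rps29 1.24 CPM per kb, all for proteins that an ordinary ribosome holds once. The 9 members whose longest exon has under 150 bases had 3.44 to 24.5 CPM per kb, with a median of 10.6. The median was 35.5 for a longest exon from 150 to under 200 bases, 76.0 from 200 to under 300 and 42.7 from 300 on, so it did not rise steadily. Spearman's rho between longest exon and CPM per kb was 0.16 over these 80 members, which share the same libraries. These lengths rest on 1 chosen model per gene, and some models are long beside their coding part. The model of Rps15a has 5130 bases with a longest exon of 4816, for 390 coding bases. Rpl6l and Rpl32l, which have a single exon and carry a processed pseudogene model in GENCODE, had 317 and 244 CPM per kb, against 63.5 and 103 for Rpl6 and Rpl32. Over the aligned coding bases, Rpl6l is 98.7% identical to Rpl6 and Rpl32l 97.2% identical to Rpl32.

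The counts of many members lay on copies of them. Copies were taken as the table's genes whose symbol or title names a member as its pseudogene, retrogene or like gene, together with Entrez 19983, which the table titles only ribosomal protein L5 and which was counted as a copy of Rpl5. There were 94 of them, for 40 members. Over the 6 libraries the copies held 346158 counts and the members 244020, which is 1.42 counts on copies for each count on a member. Of the 34 members that had a counted copy, 25 had more counts on copies than on the gene itself. Entrez 19983 alone held 9.73% of the copies' counts. Without it there were 1.28 counts on copies for each count on a member, and 24 members had more counts on copies, since Rpl5 had 2901 counts of its own against 1316 on Rpl5-ps2. Of 66 counted copies whose transcript aligned to at least 80% of a member's coding part, 64 were identical to it at 95% of bases or more, with a median of 98.8% and a range of 94.2 to 100%.

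The coding sequences of 3 members and their main copies are shown because the member of each pair had few or no counts and its copy many. Sequences are the coding strand of GENCODE M21 transcripts (GRCm38), each a stretch of 90 coding bases of the member with the most differences. The member is in lower case, and capitals in the other gene mark bases that differ from the member. Rps18 (chromosome 17) and Rps18-ps6 (chromosome 13) are shown over coding bases 282 to 371, counted from 1 at the start codon of Rps18.
Rps18: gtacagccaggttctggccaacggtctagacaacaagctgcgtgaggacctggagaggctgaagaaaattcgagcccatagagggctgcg
Rps18-ps6: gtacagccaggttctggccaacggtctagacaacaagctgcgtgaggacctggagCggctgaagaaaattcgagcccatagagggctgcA
Over the whole coding part these genes differ at 4 of 456 bases, T186C, A337C, G371A and G431A, with the base of Rps18 first. Rps27 (chromosome 3), its copy Rps27rt (chromosome 9) and its paralog Rps27l (chromosome 9) are shown over coding bases 1 to 90 of Rps27.
Rps27: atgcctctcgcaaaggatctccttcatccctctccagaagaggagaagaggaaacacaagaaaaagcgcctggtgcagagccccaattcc
Rps27rt: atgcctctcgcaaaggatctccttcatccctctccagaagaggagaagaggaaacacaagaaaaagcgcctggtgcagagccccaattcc
Rps27l: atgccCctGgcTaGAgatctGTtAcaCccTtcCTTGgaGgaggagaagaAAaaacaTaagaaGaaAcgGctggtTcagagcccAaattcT
Rps27rt is identical to Rps27 at all 252 coding bases, and Rps27l at 192 of 252 (76.2%). Rpl39 (chromosome X) and Rpl39-ps (chromosome 15) are shown over coding bases 64 to 153 of Rpl39, of which the copy's transcript covers 87.
Rpl39: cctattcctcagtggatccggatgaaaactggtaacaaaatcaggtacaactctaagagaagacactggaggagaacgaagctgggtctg
Rpl39-ps: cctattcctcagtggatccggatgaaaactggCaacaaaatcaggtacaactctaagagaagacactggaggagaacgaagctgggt
Their 1 difference is T96C.

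The counts on these pairs were uneven. Rpl39 had 0 counts, and Rpl39-ps had 3617, 2177 and 3468 counts in RAG1-/- against 1765, 2231 and 903 in RAG1-/- Sgo1-/+. Rps27 had 40, 15 and 19 counts against 8, 15 and 9, and Rps27rt had 7338, 3516 and 5810 against 3194, 3412 and 1630. Rps27l, whose sequence differs more, had 603 counts of its own over the 6 libraries, and none of the genes in the table was named as its copy. Entrez 19983 had 33664 counts against the 2901 of Rpl5. Reads from a member and a near-identical copy can hardly be told apart, so a low or 0 count on the member is not shown to be a lack of its mRNA. The only copy of Rplp1, Gm17511, had 0 counts, and none of the 10 highest members had a copy with counts. Rpl6l, which is among them, is itself 98.7% identical to Rpl6, with 9542 counts against 2757. As members by name, Rpl6l and Rpl32l were not counted as copies of Rpl6 and Rpl32. A further trait of the copies was that 80.6 to 94.03% of those with a count had an even count in each library, against 48.1 to 61.3% of the members and 63.5 to 69.0% of all genes. How read pairs and reads with several matches were counted is not given in the sources used here.

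**Figure D2:**
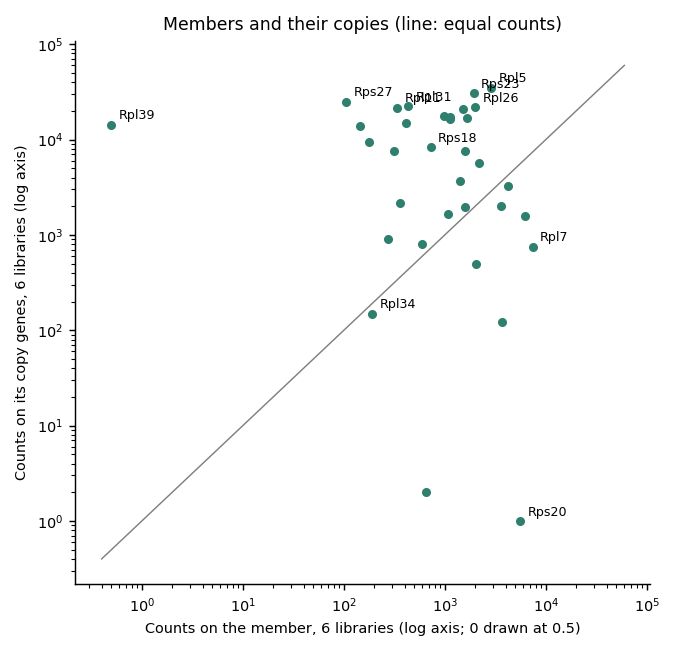
Counts on each of the 34 members that had a counted copy, summed over the 6 libraries (horizontal, log axis), against the counts on all copies of that member (vertical, log axis). Each point is 1 member, the line marks equal counts, and Rpl39, with 0 counts, is drawn at 0.5. The 25 members above the line had more counts on their copies.

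The members were next compared between the groups. A call needed a Benjamini-Hochberg adjusted P under 0.05 in edgeR's quasi-likelihood test together with a change of at least 2-fold. No member met it, and no gene at all did (0% of 17231 tested). The smallest adjusted P of the members, 0.832, was that of the whole table. At an unadjusted P under 0.05 there were 8 of the 80 members (10%), against 976 genes, 5.66% of all tested. All 8 members had lower means in RAG1-/- Sgo1-/+, where the background was 2.52% lower and 3.15% higher. Both shares moved when control libraries were left out. Without replicate 3 there were 2 such members (2.5%, against 3.36% of all genes tested), without replicate 2 there were 5 (6.25% against 3.49%), and without replicate 1 there were 17 (21.25% against 7.09%). Without replicates 1 and 2 together there were 3 (3.80% against 3.45%). DESeq2 gave 7 such members (8.75% against 4.13%) and limma-voom 7 (8.75% against 4.86%).

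The log2 fold change, RAG1-/- Sgo1-/+ over RAG1-/-, was below 0 for 56 of the 80 members (70.0%), against 45.1% of all tested genes. Its median was -0.12 over the members and 0.03 over all tested genes. Large subunit members had a median of -0.10 (34 of 48 below 0) and small subunit members one of -0.16 (22 of 32). The 33 tested members with a counted copy had a median of -0.22, and the 47 without one a median of -0.08. Those 47 hold Rpl6 with Rpl6l and Rpl32 with Rpl32l, pairs of near-identical members. The tested copies themselves had a median of -0.13, with 50 of 68 below 0. Single values ran from -1.31 for Rpl3l, which had 23 counts in all, to 0.53 for Rpl38, with 36 counts, and 74 of the 80 were within 1.5-fold. The groups did not overlap in CPM for 14 members, 11 lower and 3 higher in RAG1-/- Sgo1-/+, where the background was 11.8% of tested genes, 5.54% lower and 6.24% higher.

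**Figure D3:**
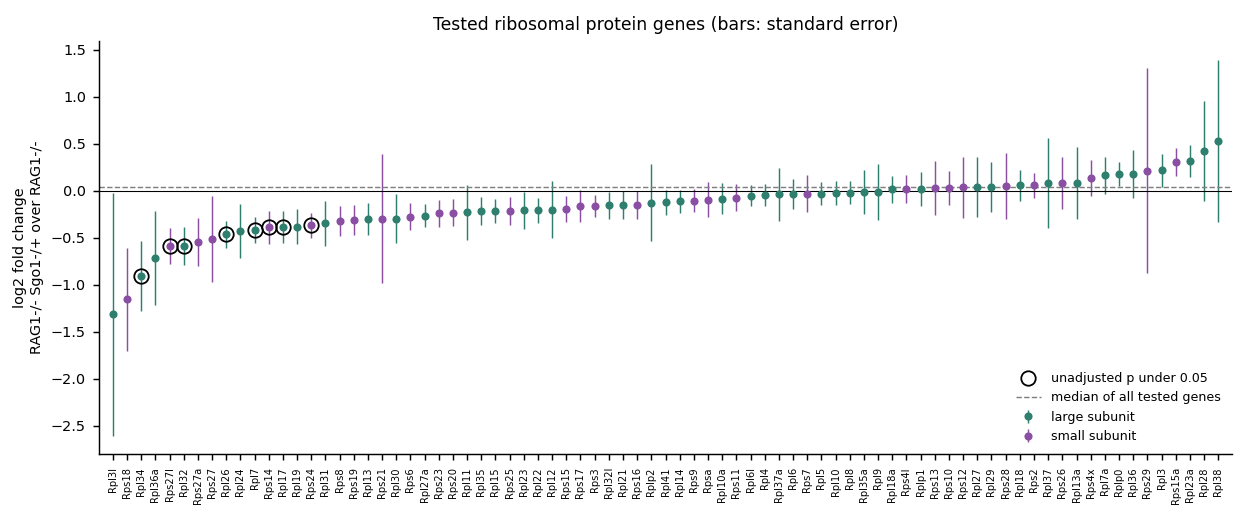
Log2 fold change of RAG1-/- Sgo1-/+ over RAG1-/- (vertical) for tested members in rising order (horizontal), with bars of 1 standard error derived from edgeR's test statistic. Green points are large subunit and purple points small subunit genes, open circles mark the 8 members at an unadjusted P under 0.05, and the dashed line is the median of all tested genes, 0.03. The points run from Rpl3l at -1.31 to Rpl38 at 0.53, and all circled genes lie below 0.

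Summed over the 83 members, 0.694, 0.731 and 0.779% of counts were on ribosomal protein genes in RAG1-/- against 0.636, 0.687 and 0.709% in RAG1-/- Sgo1-/+. The means were 0.735% ± 0.043 (SD, n = 3) and 0.678% ± 0.038 (SD, n = 3), and the groups overlapped. The copies took 1.010, 0.993 and 1.146% in RAG1-/- against 0.938, 0.970 and 0.869% in RAG1-/- Sgo1-/+, and members and copies together 1.70, 1.72 and 1.93% against 1.57, 1.66 and 1.58%. The groups did not overlap for the copies, nor for this sum, in which replicate 1 with 1.70% and replicate 5 with 1.66% lay closest. Without Entrez 19983 the closest values of the copies were 0.900% in replicate 2 and 0.871% in replicate 5, again without overlap. In bulk tissue, fewer cells of a kind and less RNA per cell cannot be told apart. Erythroid markers, which come from red cells in the lung's blood, moved in the same direction. The 8 markers in the table, none of them at 0, took 0.346, 0.581 and 0.931% of counts in RAG1-/- against 0.261, 0.472 and 0.315% in RAG1-/- Sgo1-/+, and all 8 had a log2 fold change below 0, with 5 at an unadjusted P under 0.05 in edgeR's test. In RAG1-/-, members, copies and erythroid markers were all highest in replicate 3. In RAG1-/- Sgo1-/+ they differed: members were highest in replicate 6, where copies were lowest, and copies and erythroid markers were highest in replicate 5. The part of the erythroid markers' difference in the members' values was not tested.

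**Figure D4:**
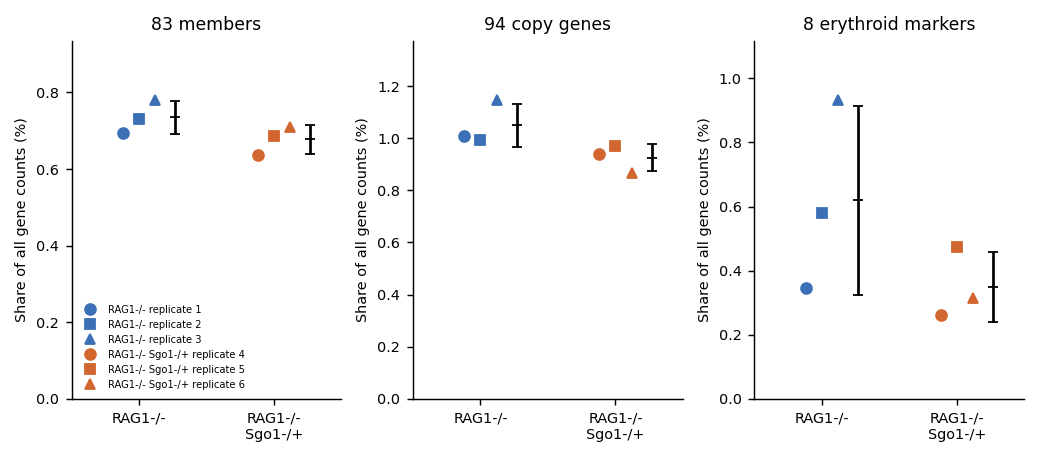
Share of all gene counts in each library, in percent, for the 83 members (left), their 94 copies (middle) and 8 erythroid markers (right). Each point is 1 library, horizontal ticks are group means and bars 1 SD (n = 3). Members span 0.636 to 0.779%, and the RAG1-/- replicate 3 point is highest in all 3 panels.

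Among large subunit genes, Rpl7, an rRNA-binding protein, had 212, 241 and 274 CPM in RAG1-/- against 161, 189 and 195 CPM in RAG1-/- Sgo1-/+. The groups did not overlap, and the log2 fold change was -0.42 (SE 0.14, unadjusted P=0.0131, adjusted P=0.832 in edgeR's test). Rpl26, which sits near the exit of the peptide tunnel, had 58.5, 75.4 and 66.3 CPM against 43.0, 51.9 and 49.9 CPM, again without overlap, with a log2 fold change of -0.46 (SE 0.14, unadjusted P=0.00876 in edgeR's test). When the counts of its copy Gm15772 were added to it, the log2 fold change of Rpl26 was -0.13 and its unadjusted P 0.305 in edgeR's test. Its own counts were 6.72 to 11.4% of that sum. Rpl7, with 754 counts on copies against 7436 of its own, had -0.37 after the same addition (unadjusted P=0.0209 in edgeR's test). With copies added to every member that has them, 8 of 81 tested members had an unadjusted P under 0.05 in edgeR's test, all lower. That was 9.88%, against 5.64% of all genes tested, and the members' median log2 fold change was -0.13. Rps27, Rps23 and Rpl35a were among these 8 only after the addition, while Rpl26, Rpl17 and Rpl34 dropped out.

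Rpl32 had 54.3, 68.9 and 68.7 CPM against 41.2, 54.6 and 30.6 CPM. The value of replicate 5 lay just inside the RAG1-/- range, and the log2 fold change was -0.59 (SE 0.20, unadjusted P=0.0153 in edgeR's test). Rpl17, which lies by the tunnel exit like Rpl26, had 26.9, 32.1 and 35.7 CPM against 22.0, 27.2 and 23.1 CPM, with a log2 fold change of -0.38 (SE 0.17, unadjusted P=0.0479 in edgeR's test). With its 3 copies added, the log2 fold change of Rpl17 was -0.26 (unadjusted P=0.0704 in edgeR's test). Its own counts were 4.55 to 5.92% of that sum. Rpl34 was low, with 5.66, 7.07 and 7.87 CPM against 3.64, 4.82 and 2.18 CPM, and its groups did not overlap (log2 fold change -0.91, SE 0.37, unadjusted P=0.0334 in edgeR's test). With its 2 copies added, the log2 fold change of Rpl34 was -0.73 (unadjusted P=0.0541 in edgeR's test). Rpl34 itself rested on 191 counts in all, and no exact permutation of 3 against 3 libraries can give a P under 0.1.

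Among small subunit genes, Rps24, a protein mutated in some patients with Diamond-Blackfan anaemia, had 99.8, 102 and 105 CPM in RAG1-/- against 74.7, 90.4 and 72.1 CPM in RAG1-/- Sgo1-/+. The groups did not overlap (log2 fold change -0.37, SE 0.13, unadjusted P=0.0172 in edgeR's test). Rps14, lost in the 5q- syndrome of human bone marrow, had 47.6, 61.4 and 69.6 CPM against 45.1, 52.1 and 38.4 CPM, with overlap (log2 fold change -0.39, SE 0.17, unadjusted P=0.0491 in edgeR's test). Rps27l, a paralog of Rps27 known as a p53 target, had 18.4, 22.0 and 21.03 CPM against 11.5, 14.8 and 14.3 CPM, without overlap (log2 fold change -0.59, SE 0.19, unadjusted P=0.0118 in edgeR's test). Of the p53 list, 7 of 9 genes were above 0, with a median log2 fold change of 0.20, and 0 of 9 had an unadjusted P under 0.05 in edgeR's test.

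Rps18 had the lowest fold change of the members with at least 60 counts, and it came from 2 libraries. Rps18, at the head of the small subunit, had 20.9, 32.1 and 29.1 CPM in RAG1-/- against 3.84, 25.9 and 5.61 CPM in RAG1-/- Sgo1-/+, so replicates 4 and 6 were low and replicate 5 lay within the control range. The log2 fold change was -1.16 (SE 0.54, unadjusted P=0.0595 in edgeR's test, exact permutation P=0.2). The copy Rps18-ps6 had 223, 222 and 235 CPM against 313, 203 and 279 CPM, and was highest in the same 2 libraries. Added together, Rps18 and Rps18-ps6 had 244, 254 and 264 CPM against 317, 229 and 285 CPM, with a log2 fold change of 0.12 (SE 0.14), above 0. The share of this sum on Rps18 itself was 8.59 to 12.6% in RAG1-/- and in replicate 5, but 1.21% in replicate 4 and 1.97% in replicate 6. H2-K1, a class I histocompatibility gene near Rps18 on chromosome 17, was added once its values were known. It had 254, 221 and 229 CPM in RAG1-/- against 23.0, 390 and 31.5 CPM in RAG1-/- Sgo1-/+, low in replicates 4 and 6 as well. The targeted gene, Sgo1, is on chromosome 17 too, and a part of its position in these values was not tested. Of the genes next to Rps18, Vps52 had 34.3, 28.3, 34.7, 37.6, 29.1 and 48.0 CPM and B3galt4 5.34, 6.06, 5.45, 10.1, 8.89 and 14.3 CPM in replicates 1 to 6, and neither was low in those libraries. B3galt4 was higher in RAG1-/- Sgo1-/+ without overlap (log2 fold change 0.97, SE 0.28, unadjusted P=0.00645 in edgeR's test).

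**Figure D5:**
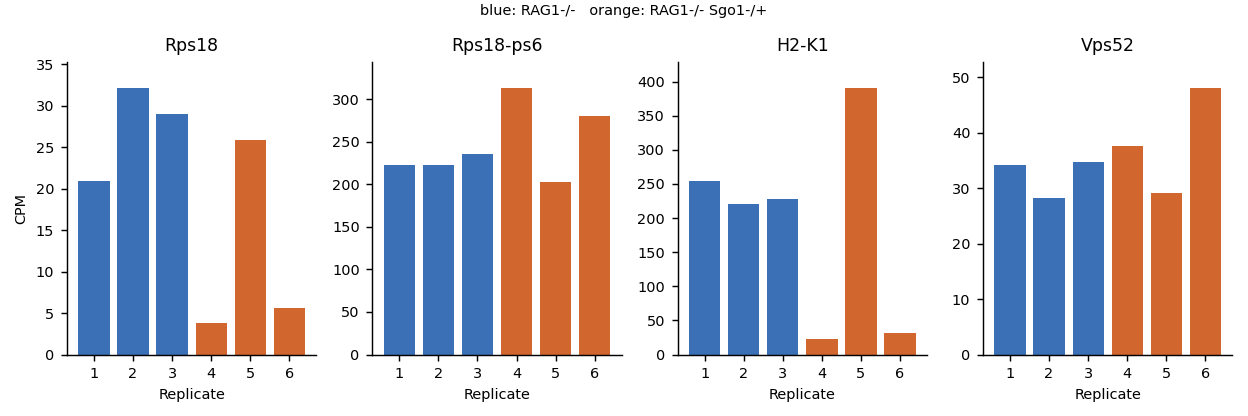
CPM in each library of Rps18, its copy Rps18-ps6, the nearby H2-K1 and the adjacent Vps52 (vertical, a separate scale from 0 in each panel), with 1 bar per library and no error bars. Blue bars are RAG1-/- and orange bars RAG1-/- Sgo1-/+. Rps18 and H2-K1 are low in replicates 4 and 6, and Rps18-ps6 is highest there.

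Another 6 members were lower without overlap and did not reach an unadjusted P under 0.05 in edgeR's test, and they were named after their values were seen. Rpl27a, a large subunit protein, had 106, 129 and 117 CPM in RAG1-/- against 98.8, 97.1 and 96.4 CPM in RAG1-/- Sgo1-/+ (log2 fold change -0.27, SE 0.12, unadjusted P=0.0532 in edgeR's test). Rpl15 had 115, 102.0 and 109.7 CPM against 101.8, 94.7 and 84.8 CPM, with replicates 2 and 4 almost level. Rps3, which lies at the mRNA entry of the small subunit, had 278, 269 and 297 CPM against 260, 257 and 238 CPM, and Rps25 had 42.0, 45.3 and 44.6 CPM against 40.6, 41.3 and 31.2 CPM. The log2 fold changes of these 3 were -0.22, -0.16 and -0.21. Rpl24 and Rps27 were the others, with 219 and 106 counts in all.

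Rpl36a, an X-linked large subunit gene, had 2.67, 5.25 and 2.57 CPM against 2.02, 2.59 and 1.56 CPM (log2 fold change -0.71, SE 0.50). Of the other X-linked members, Rpl10, which joins the large subunit late in its assembly, had 44.0 to 50.7 CPM in RAG1-/- and 45.2 to 47.1 CPM in RAG1-/- Sgo1-/+, and Rps4x had 24.7 to 36.5 CPM and 28.7 to 40.9 CPM. Replicate 1, the library with Xist, had the lowest values of both genes in the RAG1-/- group.

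The highest fold changes were small. Rplp0, the base of the ribosomal stalk and a common reference gene, had 296, 311 and 327 CPM in RAG1-/- against 329, 330 and 397 CPM in RAG1-/- Sgo1-/+, without overlap (log2 fold change 0.18, SE 0.13, unadjusted P=0.188 in edgeR's test). The gap between replicates 3 and 4 was smaller than the spread within either group. Rps15a had 28.4, 30.7 and 31.3 CPM against 33.1, 36.3 and 42.4 CPM (log2 fold change 0.30, SE 0.15), but -0.10 after its 6 copies were added. Rpl23a had 21.5, 18.2 and 18.0 CPM against 25.3, 25.0 and 21.5 CPM (log2 fold change 0.32, SE 0.17), and the lowest RAG1-/- Sgo1-/+ value and the highest RAG1-/- value both rounded to 21.5 CPM. Rpl28 (0.42, SE 0.53), Rpl3 (0.21, SE 0.17), the catalytic centre's neighbour, and Rpl36 (0.18, SE 0.26) overlapped between the groups.

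Rplp2, Rpl5, Rpl11, Rps19, Rps6 and Rpsa overlapped between the groups. Rplp2, the partner of Rplp1, had 4.06, 8.89 and 4.69 CPM in RAG1-/- against 7.07, 4.08 and 4.68 CPM in RAG1-/- Sgo1-/+, far below Rplp1. Rpl5 had 82.7, 79.6 and 92.9 CPM against 77.0, 82.6 and 90.8 CPM, and Rpl11 11.5, 6.87 and 12.0 CPM against 10.7, 7.22 and 8.11 CPM. Rps19, the gene most often mutated in Diamond-Blackfan anaemia, had 43.6, 46.1 and 52.5 CPM against 38.6, 44.5 and 30.6 CPM (log2 fold change -0.31, SE 0.16). Rps6, the substrate of S6 kinase, had 177, 216 and 238 CPM against 165, 190 and 166 CPM (log2 fold change -0.28, SE 0.14). Rpsa, also known as the laminin receptor, had 146, 184 and 200 CPM against 136, 150 and 211 CPM.

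Proteins of the cytosolic ribosome whose symbols fall outside the rule were listed apart. Among the 8 genes of that list, which holds Fau, Rack1, Rps3a1, Rpl22l1, Rpl7l1, Rpl36al and Rps27rt, the median log2 fold change was -0.09. Of the 8, 2 had an unadjusted P under 0.05 in edgeR's test, against 5.66% of all tested genes. Rps27rt, which was also counted among the copies above, had 783, 710 and 879 CPM against 645, 632 and 508 CPM, without overlap (log2 fold change -0.41, SE 0.14, unadjusted P=0.0168 in edgeR's test). Rpl22l1, a paralog of Rpl22, had 23.9, 35.2 and 33.1 CPM against 17.8, 25.2 and 22.1 CPM (log2 fold change -0.49, SE 0.20, unadjusted P=0.0349 in edgeR's test). Rack1, a scaffold on the small subunit, had 249, 217 and 255 CPM against 260, 261 and 256 CPM, without overlap (log2 fold change 0.11, SE 0.12). Fau, Rps3a1 and Rpl36al were below 0 and Rpl7l1 above 0, with log2 fold changes from -0.14 to 0.05.

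The rest of the translation machinery was set beside the members. Of 78 mitochondrial ribosomal protein genes, which serve the separate ribosome of that organelle, 4 had an unadjusted P under 0.05, all lower (5.13%), and the median log2 fold change was -0.06. Of these genes 51 (65.4%) were below 0, against 70.0% of the members and 45.1% of all tested genes. The groups did not overlap for 15 of them (19.2%), 13 lower and 2 higher. That share was 17.5% of the tested members and 11.8% of all tested genes. Mrpl27 (36.3, 35.0 and 31.8 CPM against 24.2, 27.8 and 23.1 CPM) and Mrpl41 (39.6, 46.3 and 43.6 CPM against 31.1, 34.6 and 33.7 CPM) did not overlap. Genes of ribosome biogenesis had a median of 0.05 over 52 genes, with 1 at an unadjusted P under 0.05. That gene was Nop2, an rRNA methyltransferase, with 16.4, 12.5 and 13.5 CPM against 21.2, 21.1 and 29.0 CPM (log2 fold change 0.73, SE 0.21, unadjusted P=0.0051 in edgeR's test). Initiation factors had a median of -0.01 over 37 genes, with 2 lower and 2 higher at an unadjusted P under 0.05. Eif3e, a subunit of eIF3, had 15.9, 22.2 and 20.9 CPM against 14.1, 12.8 and 9.36 CPM, and Eif6, which keeps the subunits apart during assembly, 39.6, 37.8 and 34.8 CPM against 45.1, 45.6 and 53.3 CPM. The 6 elongation factors had a median of 0.01, with 0 at an unadjusted P under 0.05 in edgeR's test.

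Genes of other mRNAs known to carry a TOP motif had a median closer to that of the members. Over 16 genes, some of them also in the factor lists, it was -0.16, with 12 below 0 and 3 at an unadjusted P under 0.05, all lower. Tpt1, the translationally controlled tumour protein, had 250, 329 and 325 CPM against 198.6, 230 and 203 CPM (log2 fold change -0.52, SE 0.14, unadjusted P=0.00483 in edgeR's test), and Naca, a chaperone at the tunnel exit, 17.3, 17.2 and 20.3 CPM against 13.7, 11.7 and 12.5 CPM. The 16 regulators around mTORC1 and Myc had a median of 0.17, with 13 above 0 and 0 at an unadjusted P under 0.05 in edgeR's test.

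The start of the transcripts was read for the members in the RefSeq promoter table (GRCm38.p6), which matched 61 of the 83 with 73 annotated starts. On the transcribed strand, an unbroken run of at least 8 C or T that reached within 5 bases of the annotated start was found at 24 of 73 starts (32.9%), against 9.87% of the 15954 starts of tested genes and 9.38% of all 32851. A run of at least 6 was found at 33 of 73 starts (45.2%), against 20.4% of the starts of tested genes and 20.2% of all. The letters CCGGAAG, part of the motif of ETS factors, were present on either strand at 35.6% of the members' starts, 14.9% of those of tested genes and 8.86% of all, in windows of 300 bases. AAGATGGC, the core of the YY1 motif, was present at 9.59, 3.72 and 2.75%. A match is a description of the letters only, and some annotated starts may be off by several bases. Windows of 30 bases around the annotated starts, 15 before and 15 after, are printed for some of the members with low or high fold changes. Capitals mark the longest pyrimidine run that reached within 5 bases of the start, as far as it lies in the window. A shorter run may lie closer to the start.
Rps18 (chr17:33955651-33955680, minus strand): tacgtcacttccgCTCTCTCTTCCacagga
Rps24 (chr14:24490663-24490692, plus strand): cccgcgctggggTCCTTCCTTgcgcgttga
Rpl26 (chr11:68901551-68901580, plus strand): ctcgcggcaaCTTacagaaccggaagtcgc
Rpl34 (chr3:130730323-130730352, minus strand): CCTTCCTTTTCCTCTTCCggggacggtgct
Rps27l (chr9:66946071-66946100, plus strand): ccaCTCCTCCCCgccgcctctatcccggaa
Rps15a (chr7:118116133-118116162, minus strand): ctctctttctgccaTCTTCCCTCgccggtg
Rplp0 (chr5:115559452-115559481, plus strand): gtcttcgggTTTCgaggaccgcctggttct
Rpl34, Rps24 and Rps27l have a further annotated start each, not shown, with shorter runs of 6, 2 and 4. At the starts shown, the genes with negative fold changes had runs of 11 (Rps18), 9 (Rps24), 3 (Rpl26), 20 (Rpl34) and 9 (Rps27l). Those with positive fold changes had runs of 9 (Rps15a) and 4 (Rplp0). Among members not printed, Rpl36a (log2 fold change -0.71) had a run of 3 and Rpl28 (0.42) a run of 11. Whether the length of the run goes with the fold change was not tested.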

How the data were processed

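The authors isolated lung RNA, sequenced it as paired reads on an Illumina MiSeq and analysed it with GeneSifter. Per the labels, BWA and edgeR were used. Mouse Build 37.2 is named in the file header, and strand, annotation and the treatment of reads with several matches are not given in the sources used here. The deposited table holds raw counts per gene, and each of its 6 columns has a second, identical column, which was not used. The authors' own comparison was not used. It lists their fold changes and P-values. Entrez IDs were matched to symbols for 24048 of 25860 genes (93.0%).

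Members and gene lists were chosen with earlier results of these data known. Genes with at least 10 counts over the 6 libraries were tested with edgeR 4.0.16 (quasi-likelihood, total count as library size, R 4.3.3), which was tested on simulated data. A gene was called at an adjusted P under 0.05 and at least 2-fold. The SE given is the absolute log2 fold change over the square root of F, the statistic of the quasi-likelihood test. Exact permutation tests were two-sided, with 20 groupings and a smallest P of 0.1. Libraries are separate mice, so the spread is that between mice. Total counts were 9366774, 4949415, 6608063, 4950007, 5398576 and 3205822 in replicates 1 to 6, and floors of 3 counts cover counting error only.

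Named members were the 10 highest, the 5 highest and 5 lowest fold changes with at least 60 counts, those at an unadjusted P under 0.05 (those without overlap were counted), X-linked members, paralogs and Rpsa, Rplp0, Rplp1, Rplp2, Rps6, Rpl5, Rpl11, Rps19 and Rps18, with up to 3 genes of each other list. Copies, neighbours of Rps18 and Rps27 were chosen after the values were seen. Alternatives were TMM and DESeq2 size factors, other library totals, other filters, DESeq2 1.42.0, limma-voom 3.58.1, thinned and halved counts, and each library left out. Adding copies to their member, leaving out replicates 1 and 2 and summing copies without Entrez 19983 were chosen after seeing the data. Copies were aligned to coding sequences of GENCODE M21, whose APPRIS principal transcripts also gave lengths. Some items are not reported here.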

Additional observations from a re-analysis of the deposited data

How the results depend on the processing

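No paired analysis was possible because the groups share no replicate numbers. No member was called under any of the 18 alternatives, and 1 gene, not a member, was called by DESeq2; without 1 replicate at a time, 0 to 1 genes were called. The members at an unadjusted P under 0.05, 8 as reported, were 5 with the members' own total as library size (3 lower and 2 higher), 2 to 17 without 1 replicate at a time and 3 without RAG1-/- replicates 1 and 2. Over all genes tested the share at that P, 5.66% as reported, was 7.91%, 3.36 to 8.33% and 3.45% in the same order. Their median log2 fold change, -0.12, was -0.00 (-0.0015) with the members' total, which centres it by construction, and -0.22 without RAG1-/- replicates 1 and 2. It was -0.19 to -0.07 without 1 replicate at a time and -0.13 with copies added. The difference in summed share, RAG1-/- Sgo1-/+ minus RAG1-/-, was -0.0571 percentage points, -0.181 with copies added, -0.102 without replicates 1 and 2, and -0.0773 to -0.0348 without 1 replicate at a time.
Of the members whose fold change is given, Rpl36 changed sign to -0.17 with copies added and to -0.0732 without replicates 1 and 2, Rps15a to -0.10 and Rps18 to 0.12 with copies added. The cause was not tested. Depth limits the low members: 76 of the 83 had at least 60 counts, and the SE was 1.29 for Rpl3l with 23 counts, against a median of 0.17 over the tested members.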
